A study of Mus musculus with 32 samples.

Results

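The inward rectifier potassium channel genes described here are Kcnj2, Kcnj3, Kcnj4, Kcnj6, Kcnj9, Kcnj10, Kcnj11, Kcnj12 and Kcnj16. These 9 of the 56415 genes in the deposited gene table were chosen by symbol. Kcnj2 heads the group because its level rose after prenatal ethanol in the hippocampus of ACSS2 knockout mice, and the G protein gated members Kcnj3, Kcnj6 and Kcnj9 were included because their channels are known direct targets of ethanol. All 9 genes passed the filter on low counts in both tissues.

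PolyA RNA was sequenced from the dorsal hippocampus and the cerebellar vermis of 16 C57BL/6J mice, 1 library per mouse and tissue, giving 32 libraries in 8 groups of 4 (2 females and 2 males each). Wild-type (WT) and ACSS2 knockout (KO) offspring came from dams given either ethanol (3 g/kg, as a 20% v/v solution) or saline by daily intraperitoneal injection until birth, were weaned at postnatal day 21 and were killed between postnatal days 40 and 50. The saline groups therefore share the injections, and every mouse was examined weeks after the last exposure. The sample labels used here do not give the dam or litter of a mouse. The tests treat each mouse as independent, although the exposure was given to the dam. How the KO allele was made, and in which cells Acss2 is lost, is not given in the sources used here. Acss2, which encodes a nuclear and cytosolic acetyl-CoA synthetase, had counts-per-million (CPM) values of 10.4 to 13.8 in KO against 50.0 to 62.3 CPM in WT hippocampus, and of 10.9 to 20.2 against 56.4 to 68.7 CPM in vermis. Library totals ran from 54092519 to 96664509 counts in hippocampus and from 23085928 to 73803508 in vermis. In the vermis the KO ethanol libraries F1 and M3 stood apart from the other 14 in cell type markers, as described below. Several fold changes that rest on them are given with and without them, but correlations in vermis only with them. F1, F3, M1 and M3 are the labels of the 2 females and 2 males of a group and name different mice in different groups.

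Inward rectifier (Kir) channels pass potassium into a cell more readily than out of it, and so hold the resting membrane potential near the potassium equilibrium and buffer extracellular potassium. Each channel is a tetramer that needs the membrane lipid PIP2 to open. Kcnj2 (Kir2.1), Kcnj12 (Kir2.2) and Kcnj4 (Kir2.3) encode strong rectifiers of neurons, microglia and vessels; Kcnj3 (GIRK1), Kcnj6 (GIRK2) and Kcnj9 (GIRK3) encode channels opened by G protein βγ subunits after GABA-B, adenosine A1 and related receptors are activated; Kcnj10 (Kir4.1) is the main potassium channel of astrocytes and oligodendrocytes and pairs with Kcnj16 (Kir5.1); Kcnj11 (Kir6.2) is the pore of ATP-sensitive channels. In bulk tissue a lower level cannot be separated into fewer cells of a type and less RNA per cell.

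What unites the 9 genes at the sequence level is the potassium selectivity filter, a glycine, an aromatic residue and a glycine in the loop between the membrane helices. The 30 coding bases around it are shown for 6 of the genes, in the GENCODE vM21 principal transcript, 5′ to 3′, with the 9 bases of the filter codons in capitals.
Kcnj2: cagacaaccattGGCTATGGTttcaggtgt
Kcnj3: gaggccaccatcGGCTATGGCtaccgctac
Kcnj6: gaaaccaccatcGGTTATGGCtaccgggtc
Kcnj9: gagaccaccatcGGCTATGGGcaccgggtc
Kcnj10: cagaccaccatcGGCTATGGCttccgctac
Kcnj11: caggtgaccattGGTTTCGGCgggcgcatg
A search of each reading frame for ACNATNGGN followed by TAC, TAT, TTC or TTT and GGN found 1 match in each of these 6 coding regions. The capitals start at base 430 of the coding region in Kcnj2. Kcnj6 and Kcnj9 differ at 4 of the 30 bases shown, whereas Kcnj11, whose middle filter codon is TTC where the other 5 have TAT, differs from Kcnj9 at 15.

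The coding regions were also compared as a whole, with the filter included. Over a global alignment, Kcnj2 and Kcnj12 had 70.6% identical positions, Kcnj4 and Kcnj12 67.3% and Kcnj6 and Kcnj9 63.5%, and the lowest identity among the 36 pairs was 46.6%, between Kcnj3 and Kcnj10. The longest run of bases shared exactly by any pair was 32, in Kcnj4 and Kcnj12, and Kcnj2 shared at most 23 in a row with another member (Kcnj9). The coding regions are 1140 (Kcnj10) to 1506 (Kcnj3) bases long, stop codon included.

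The levels of the 9 genes were ordered differently in the tissues. In the hippocampus, the order of levels per kb of exon was Kcnj10 (35.9 ± 5.46 CPM per kb, SD, n = 16), Kcnj3 (32.7 ± 3.29), Kcnj4 (30.4 ± 4.27), Kcnj9 (23.5 ± 4.09), Kcnj11 (10.0 ± 1.10), Kcnj6 (8.72 ± 1.41), Kcnj16 (3.47 ± 0.624), Kcnj2 (2.87 ± 0.727) and Kcnj12 (2.65 ± 0.849). Neighbours in this order lay within the spread of the libraries except Kcnj9 above Kcnj11 and Kcnj6 above Kcnj16, where the first was higher in 16 of 16 libraries. In the vermis the order was Kcnj10 (49.6 ± 9.96), Kcnj9 (35.0 ± 5.13), Kcnj12 (28.0 ± 6.48), Kcnj3 (25.6 ± 2.09), Kcnj11 (11.4 ± 1.04), Kcnj16 (9.19 ± 1.51), Kcnj6 (3.02 ± 0.428), Kcnj4 (2.21 ± 1.85) and Kcnj2 (1.04 ± 0.843). There only Kcnj3 and Kcnj11, and Kcnj16 and Kcnj6, were separated from their lower neighbour by more than the spread. Kcnj10 headed both tissues and Kcnj2 was near the foot of both.

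**Figure D1:**
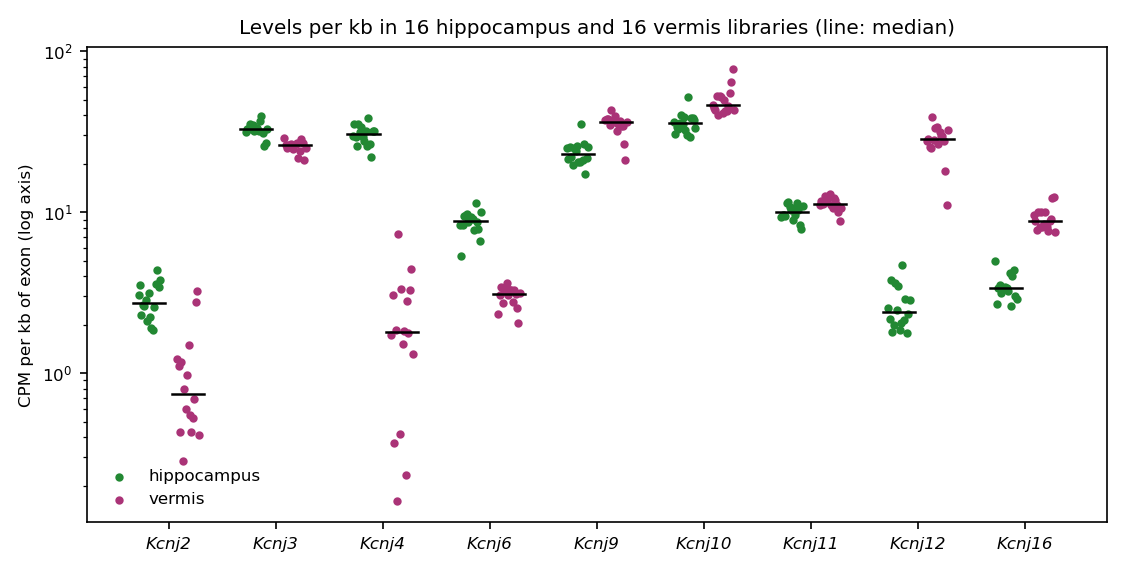
CPM per kb of exon (log axis) of the 9 genes, 1 point per library, 16 hippocampus (green) and 16 vermis (purple) libraries, with the median as a line. Kcnj12 is the lowest of the 9 genes in hippocampus at a mean of 2.65 and the third highest in vermis at 28.0, and Kcnj4 goes from 30.4 to 2.21.

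All 9 genes differed between the tissues in edgeR's quasi-likelihood test with the mouse as a block, in a contrast where 72.6% of the 24458 genes tested passed, so the share alone says little about these genes. Kcnj12, Kcnj16, Kcnj9, Kcnj10 and Kcnj11 were higher in vermis, as were 34.6% of genes tested, and Kcnj4, Kcnj2, Kcnj6 and Kcnj3 were lower, as were 38.0%. The median log2 difference was 0.12 over the members and -0.03 over all genes.

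The strong rectifiers moved furthest, and not together. Kcnj12 rose from a median of 6.56 CPM in hippocampus (4.86 to 12.9) to 77.8 CPM in vermis (30.4 to 108), a log2 difference of 3.34 ± 0.14 (SE; adjusted p = 4.70e-11), and was higher in vermis in 16 of 16 mice. Kcnj4 went the other way, from 66.1 CPM (47.2 to 83.0) to 3.87 CPM (0.346 to 15.8), a log2 difference of -4.23 ± 0.41 (adjusted p = 7.23e-07), and was lower in vermis in 16 of 16 mice. The ranges of the tissues did not overlap for either gene. Kcnj2 had a median of 14.9 CPM (10.1 to 23.8) in hippocampus and 4.02 CPM (1.56 to 17.7) in vermis, a log2 difference of -1.79 ± 0.23 (adjusted p = 9.56e-06). It too was lower in vermis in 16 of 16 mice, although its ranges overlapped through the KO ethanol mice F1 and M3; without both mice the log2 difference was -2.12. Of the summed per-kb level of the 3 genes, Kcnj4 made up 84.4 ± 3.41% in hippocampus and 7.52 ± 6.66% in vermis, and Kcnj12 made up 7.46 ± 2.60% and 88.6 ± 10.3%, so the predominant Kir2 transcript was a different one in each tissue.

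Among the G protein gated genes, Kcnj6 fell most in vermis. Its median was 67.6 CPM (40.8 to 87.3) in hippocampus and 23.8 CPM (15.7 to 27.5) in vermis, with no overlap and a log2 difference of -1.59 ± 0.06 (adjusted p = 1.34e-12). Kcnj3, whose subunit is an obligate partner in most neuronal GIRK channels, was lower by a smaller amount (log2 difference -0.42 ± 0.04, adjusted p = 1.36e-07; lower in 15 of 16 mice). Kcnj9 was higher (0.51 ± 0.06, adjusted p = 5.08e-07; higher in 15 of 16 mice). Per kb, Kcnj3, Kcnj6 and Kcnj9 made up 50.4 ± 2.69%, 13.5 ± 1.95% and 36.1 ± 3.73% of their sum in hippocampus and 40.5 ± 3.63%, 4.74 ± 0.51% and 54.8 ± 3.58% in vermis (SD, n = 16 each). Kcnj9 thus replaced Kcnj3 as the most abundant of the 3 transcripts.

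Both genes of the glial pair and the ATP-sensitive channel gene were higher in vermis. Kcnj16 rose from a median of 13.3 CPM (10.3 to 19.5) to 34.7 CPM (29.8 to 49.1), a log2 difference of 1.34 ± 0.07 (adjusted p = 7.65e-11), with no overlap. Kcnj10 rose from 192 CPM (158 to 281) to 249 CPM (218 to 422), by 0.39 ± 0.07 (adjusted p = 7.37e-05). The ratio of Kcnj16 to Kcnj10 per kb was 0.0971 ± 0.0148 in hippocampus and 0.187 ± 0.0162 in vermis. Kcnj11 rose by 0.12 ± 0.04 (adjusted p = 0.0061), the least of the 9, and without the mice F1 and M3 of the KO ethanol group its difference of 0.08 did not pass (adjusted p = 0.0631).

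The contrast that brought Kcnj2 into view was ethanol against saline in KO hippocampus, and its values are given as a description. Kcnj2 stood at 19.5, 23.8, 18.8 and 20.5 CPM in the KO ethanol mice M1, M3, F1 and F3, and at 12.2, 10.3, 10.1 and 14.1 CPM in the KO saline mice with those labels. The 2 groups did not overlap. In WT hippocampus the values were 14.1, 15.5, 11.5 and 17.1 CPM after ethanol and 16.6, 19.3, 12.4 and 14.3 CPM after saline, and these overlapped. The group means were 20.6 ± 2.22 CPM (SD, n = 4) in KO ethanol, 11.7 ± 1.85 in KO saline, 14.6 ± 2.34 in WT ethanol and 15.6 ± 2.94 in WT saline. The KO saline group was the lowest of the 4 and the KO ethanol group the highest.

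**Figure D2:**
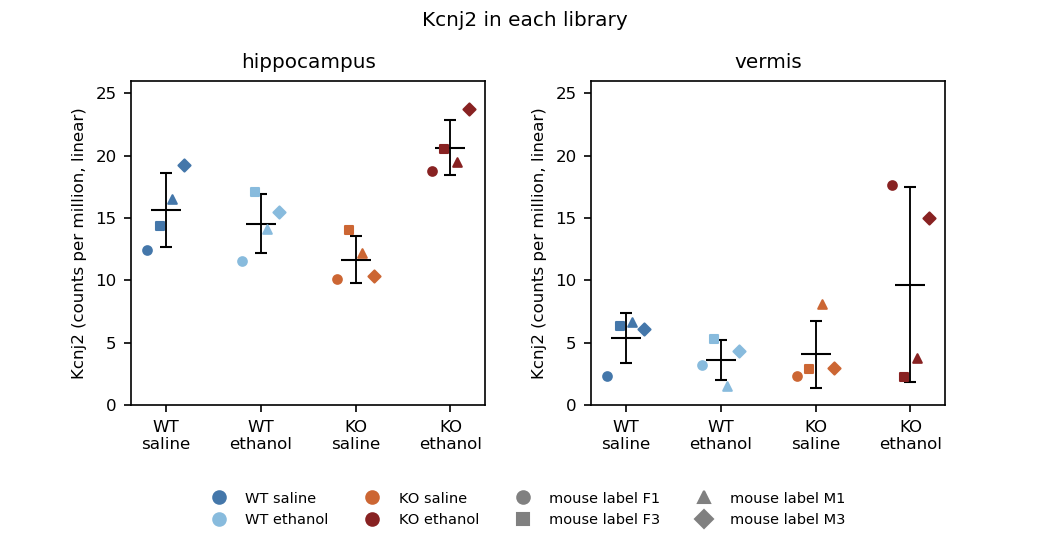
Kcnj2 in CPM (linear axis from 0) in each library, by genotype and prenatal exposure, with the mean and SD of 4 mice as horizontal and vertical bars. In hippocampus the KO ethanol libraries sit between 18.8 and 23.8, above the KO saline range of 10.1 to 14.1, and in vermis 2 of the 4 KO ethanol libraries sit at 15.0 and 17.7.

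The log2 fold change of Kcnj2 with ethanol in KO hippocampus was 0.85 ± 0.14 (95% interval 0.56 to 1.15), or 1.81-fold, and the difference between that change and the one in WT was 0.95 ± 0.20. Kcnj2 was the 1 member of 9 past the threshold in KO hippocampus, where 0.0513% of the 23394 genes tested passed. The call sat close to the threshold: it was lost in 12 of the 16 fits that left out 1 library, while the fold change stayed between 0.77 and 1.00, and it was lost when only the 8 libraries of the KO groups were fitted. For the interaction in hippocampus 0 of 9 members passed with edgeR (0.175% of genes did). With DESeq2, 1 of 9 passed, Kcnj2, as did 0.671% of genes. Kcnj2 was also the 1 member of 9 whose KO ethanol and KO saline groups did not overlap (5.69% of genes tested). Since these values chose the gene, nothing is read from any of these counts. KO differed from WT in Kcnj2 by -0.43 ± 0.14 after saline and by 0.53 ± 0.14 after ethanol; these comparisons share the groups above and add no separate evidence.

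Marker sums of other cell types were measured in the same libraries. The 9 microglia markers summed to 320 to 372 CPM in KO ethanol hippocampus, 292 to 332 CPM in KO saline, 277 to 313 CPM in WT ethanol and 296 to 337 CPM in WT saline. The 10 endothelium markers summed to 191 to 240 CPM in KO ethanol and 199 to 228 CPM in KO saline. The 12 oligodendrocyte markers summed to 6707 to 16158 CPM and 5376 to 10484 CPM in those groups. The 10 choroid plexus markers summed to 3230 and 2714 CPM in the KO ethanol mice M3 and F1, to 115 and 193 CPM in M1 and F3, and to 35.02 to 1283 CPM in KO saline. The 8 striatal neuron markers summed to 277 and 463 CPM in M3 and F1, to 88.2 and 95.8 CPM in M1 and F3, and to 77.8 to 174 CPM in KO saline. The 7 ependyma markers summed to 80.5 and 75.0 CPM in M3 and F1, to 16.1 and 11.8 CPM in M1 and F3, and to 7.78 to 54.2 CPM in KO saline. Kcnj2 itself stood at 23.8 and 18.8 CPM in M3 and F1, at 19.5 and 20.5 CPM in M1 and F3, and at 10.1 to 14.1 CPM in KO saline. None of these markers was at 0 in any hippocampal library, the ranges of the KO groups overlapped for each of the 6 lists, and their part in the Kcnj2 difference was not tested.

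The other 8 genes lay closer to 0 than Kcnj2 between KO ethanol and KO saline hippocampus. The next in size was Kcnj3, at 161, 134, 140 and 171 CPM after ethanol and 175, 168, 192 and 205 CPM after saline in M1, M3, F1 and F3 (log2 fold change -0.25 ± 0.08); its groups overlapped. The remaining 7 lay between -0.14 (Kcnj6) and 0.12 (Kcnj16). The median over the 9 members was -0.05, against 0.01 over all genes. Kcnj16 lies beside Kcnj2 on chromosome 11 and had 17.2, 15.7, 11.8 and 11.4 CPM in the KO ethanol mice M3, M1, F1 and F3 and 10.3 to 16.4 CPM in KO saline (log2 fold change 0.12 ± 0.17).

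In WT hippocampus, where the members had not been picked on the contrast, ethanol against saline passed for 0 of 9 genes, and for 0 of all 23394 genes tested (0%). At an unadjusted p below 0.05 the counts were 0 of 9 and 2457 of all genes, and DESeq2 called 0 of 9 and 119. Kcnj11 was the 1 member whose groups did not overlap, as did 5.77% of genes: it stood at 42.0, 42.2, 39.6 and 38.1 CPM after ethanol and 34.1, 35.5, 35.2 and 35.0 CPM after saline, a log2 fold change of 0.21 ± 0.10 (adjusted p = 0.493). Kcnj6, the GIRK2 gene, had the largest value of the 9, 0.24 ± 0.17 (adjusted p = 0.667), and the other GIRK genes, Kcnj3 and Kcnj9, were the closest of the 9 to no difference (adjusted p = 0.996 and 0.997).

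KO against WT passed for none of the members in hippocampus, after saline (0 of 9, against 0.00427% of genes) or after ethanol (0 of 9, against 0.171%). In either, 0 of the 8 members other than Kcnj2 had an unadjusted p below 0.05, as did 2070 of all genes after saline and 2320 after ethanol. With DESeq2, 0 members passed after saline, against 184 of all genes, and 1, Kcnj2, after ethanol, against 226. The groups did not overlap for 0 of 9 after saline (5.39% of genes) and for 1 of 9, Kcnj2, after ethanol (6.99% of genes). The KO libraries were used in choosing Kcnj2, so nothing is read from its call or from its lack of overlap. Outside Kcnj2, the log2 differences ran from -0.14 (Kcnj16) to 0.24 (Kcnj6) after saline and from -0.21 (Kcnj12) to 0.11 (Kcnj16) after ethanol. Sex passed for 0 of 9 in hippocampus (0.0769% of genes) and for 0 of 9 in vermis (0.0535%). With DESeq2 it passed for 0 members in both, against 53 and 18 of all genes. At an unadjusted p below 0.05 the counts were 0 and 1 (Kcnj3, -0.16 ± 0.04), against 1789 and 710 of all genes.

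**Figure D3:**
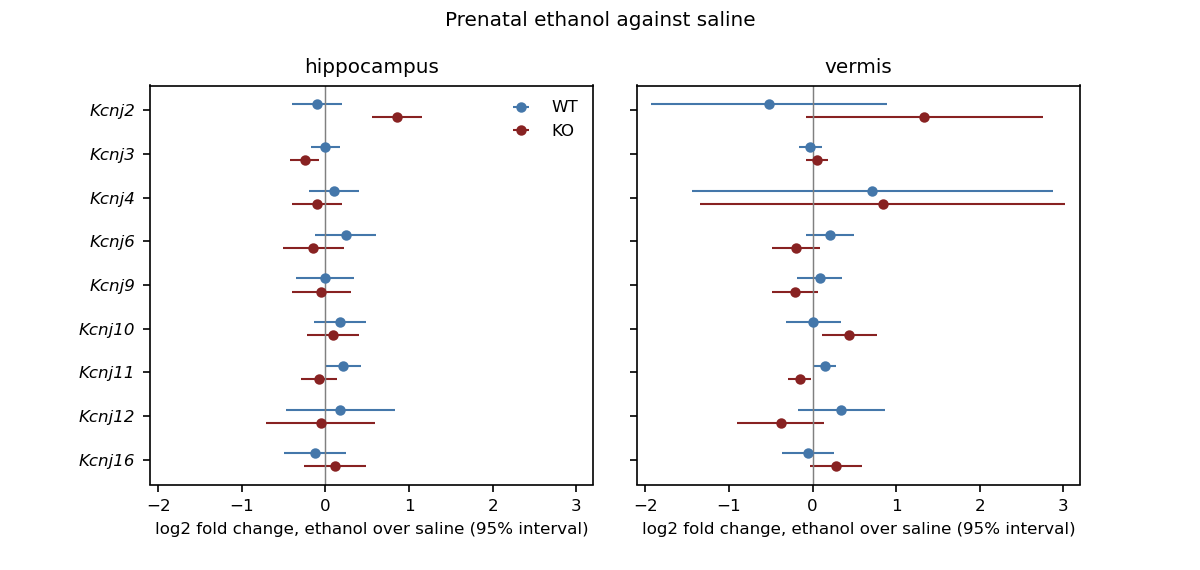
Log2 fold change of ethanol over saline with its 95% interval for the 9 genes in WT (blue) and KO (red) mice, in hippocampus and vermis. Kcnj2 in KO hippocampus, at 0.85, is the 1 value whose interval lies far from 0, and the vermis intervals of Kcnj2 and Kcnj4 are the widest.

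The vermis came from the same 16 mice and its Kcnj2 values were not used in choosing the group. Kcnj2 stood at 3.74, 15.0, 17.7 and 2.25 CPM in the KO ethanol mice M1, M3, F1 and F3, at 8.11, 2.97, 2.36 and 2.85 CPM in KO saline, at 1.56, 4.31, 3.23 and 5.27 CPM in WT ethanol and at 6.67, 6.06, 2.36 and 6.34 CPM in WT saline. The KO ethanol mice M3 and F1 were above all 8 saline mice, M1 lay within their range and F3 just below it. Ethanol against saline gave a log2 fold change of 1.34 ± 0.65 in KO (95% interval -0.08 to 2.76, adjusted p = 0.379) and -0.52 ± 0.65 in WT (adjusted p = 0.971). Without KO ethanol F1 and M3 the KO value was -0.40 ± 0.63 (adjusted p = 0.995).

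No member passed for ethanol in WT vermis (0 of 9, against 0.00446% of genes), for ethanol in KO vermis (0 of 9, 0.0891%), for KO against WT after saline (0 of 9, 4.91%) or for the interaction (0 of 9, 0.107%), with edgeR or with DESeq2. At an unadjusted p below 0.05, Kcnj11 passed in the first and in the interaction, Kcnj10 and Kcnj11 in the second and 0 in the third. Of the 22441 genes tested, 1194 did so in the first, 2993 in the second, 3152 in the third and 2524 in the interaction. Over all genes, DESeq2 called 17 in the first, 187 in the second, 1444 in the third and 223 in the interaction. The WT ethanol and WT saline groups did not overlap for 1 of 9 members, Kcnj11 (4.42% of genes): 46.3, 44.7, 45.7 and 47.4 CPM against 40.7, 43.2, 41.5 and 41.7 CPM in M1, M3, F1 and F3, a log2 fold change of 0.15 ± 0.06 (adjusted p = 0.905). Groups did not overlap for 0 of 9 in ethanol against saline in KO (5.46%) and for 0 of 9 in KO against WT after saline (13.2%). The difference between the tissues in the change with ethanol in WT passed for no member (0 of 9, and 0% of genes, with edgeR and with DESeq2). At an unadjusted p below 0.05 the difference passed for 0 of 9 members and 1217 of all genes. That difference was widest for Kcnj2, at -0.47 ± 0.63.

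Of the 9 members, 1 passed in a test between groups that the choice of genes did not use. The comparison was KO against WT vermis after ethanol, where 7.53% of 22441 genes passed and 1.80% passed as lower. A count of 1 of 9 says little beside these shares. At an unadjusted p below 0.05 the counts were 5 of 9 members and 5732 of all genes. The member that passed was Kcnj11, lower in KO than in WT. Its 4 KO values, 40.8, 36.8, 32.5 and 38.8 CPM in M1, M3, F1 and F3, all lay below the WT values of 44.7 to 47.4 CPM, and it was the 1 of 9 members without overlap (12.3% of genes). The log2 fold change was -0.29 ± 0.06 (adjusted p = 0.00925; mean 37.2 ± 3.53 against 46.0 ± 1.14 CPM, SD, n = 4). The call held in 16 of 16 fits with 1 library left out. Without both KO ethanol F1 and M3 it was lost, at -0.20 ± 0.06 (adjusted p = 0.0931), and it was lost with the 8 libraries compared fitted alone (adjusted p = 0.0935). After saline, Kcnj11 in KO and WT vermis differed by 0.02 ± 0.06 (95% interval -0.12 to 0.15), and the interaction was -0.31 ± 0.09 (adjusted p = 0.278).

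**Figure D4:**
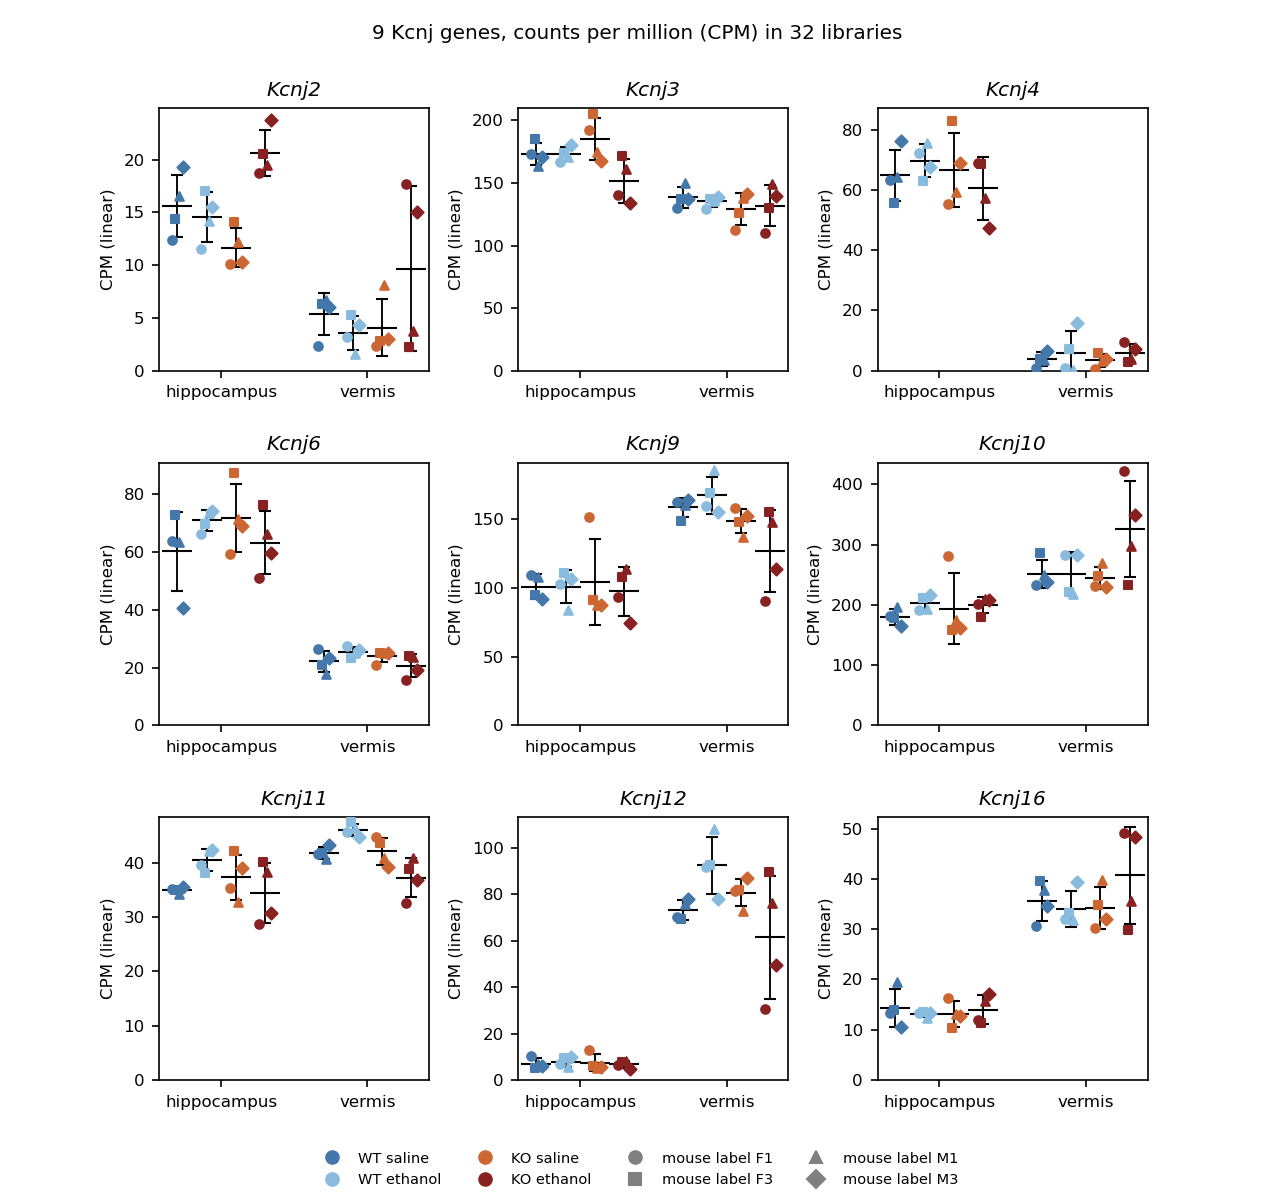
CPM (linear axes from 0) of the 9 genes in all 32 libraries, coloured by group with a marker per mouse label; bars give the mean and SD of 4 mice. The 2 tissues separate Kcnj4, Kcnj6, Kcnj12 and Kcnj16 without overlap, and in KO ethanol vermis the libraries F1 (circle) and M3 (diamond) lie apart from F3 and M1 in Kcnj2, Kcnj9, Kcnj10, Kcnj12 and Kcnj16.

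In the vermis libraries KO ethanol F1 and M3, 6 of the 9 members lay outside the range of the 14 others on the same side in both, as did 27.8% of the 22441 genes tested. Kcnj2 (17.7 and 15.0 CPM against 1.56 to 8.11), Kcnj10 (422 and 350 CPM against 218 to 298) and Kcnj16 (49.1 and 48.3 CPM against 29.8 to 39.7) were above all of them. Kcnj12 (30.4 and 49.6 CPM against 69.3 to 108), Kcnj9 (90.7 and 114 CPM against 137 to 185) and Kcnj11 (32.5 and 36.8 CPM against 38.8 to 47.4) were below. The glial pair and Kcnj2 were thus high, and Kcnj9, Kcnj11 and Kcnj12 low, in the same 2 libraries.

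The same libraries differed in cell type markers. All 8 cerebellar granule neuron markers were below the other 14 libraries in both, with sums of 1511 and 2975 CPM in F1 and M3 against 4412 to 6165 CPM, as were 7 of 8 Purkinje neuron markers (2507 and 5262 CPM against 6645 to 8963 CPM) and 5 of 6 Bergmann glia markers (1228 and 1863 CPM against 2336 to 2994 CPM). All 6 oligodendrocyte precursor markers were above (386 and 232 CPM against 137 to 184 CPM), as were 8 of 9 microglia markers (233 and 163 CPM against 92.6 to 131 CPM). The summed oligodendrocyte markers were 13014 CPM in F1 and 5695 CPM in M3, against 4041 to 6830 CPM. The endothelium sums (318 and 293 CPM against 216 to 288 CPM) and the neocortical neuron sums (201 and 184.5 CPM against 89.9 to 183.7 CPM) were also above the others. In those lists 3 of 10 and 3 of 7 markers were above in both libraries. The CA1 and CA3 pyramidal neuron sums (463 and 680 CPM against 793 to 1001 CPM) were below. Of those 9 markers, however, 3 (Wfs1, Fibcd1 and Pou3f1) were above the other 14 libraries in both, and only Nptx1 was below. The summed astrocyte markers were 4304 and 4326 CPM, within the 4129 to 5328 CPM of the others. That sum combines opposite differences. Of the 11 markers, 4 (Gfap, Slc1a2, Gja1 and Fgfr3) were above the other 14 libraries in both, and 2 (Slc1a3 and S100b) were below. No marker of the granule neuron, Purkinje neuron, Bergmann glia, oligodendrocyte precursor, microglia and oligodendrocyte lists was at 0 in any vermis library. Their part in the channel values was not tested.

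**Figure D5:**
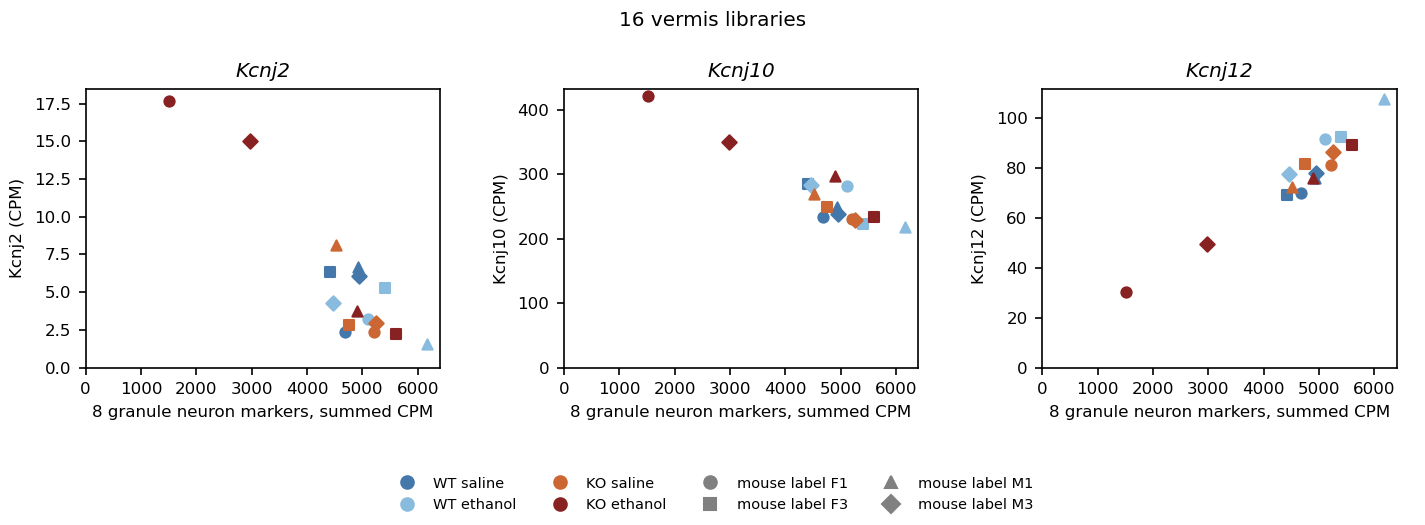
Kcnj2, Kcnj10 and Kcnj12 (CPM, linear axes from 0) against the summed level of 8 cerebellar granule neuron markers in the 16 vermis libraries. KO ethanol F1 and M3, at sums of 1511 and 2975, hold the highest Kcnj2 and Kcnj10 values and the lowest Kcnj12 values, and the other 14 lie at 4412 to 6165.

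The fitted differences between KO and WT vermis after ethanol changed when those libraries were left out. With all 4 KO mice the log2 fold changes were 1.45 for Kcnj2, 0.39 for Kcnj10, 0.28 for Kcnj16, -0.39 for Kcnj9 and -0.58 for Kcnj12, and none of the 5 passed (adjusted p = 0.185, 0.134, 0.242, 0.0805 and 0.155). Without F1 and M3 only M1 and F3 remained in the KO ethanol group. The values were then -0.33 for Kcnj2, 0.08 for Kcnj10, -0.06 for Kcnj16, -0.14 for Kcnj9 and -0.16 for Kcnj12, and none of the 5 passed. Whether those libraries account for the differences was not tested. Leaving out only KO ethanol F3, which makes F1 and M3 a larger share of the group, 5 of 9 members passed, as did 22.2% of genes tested (Kcnj9, Kcnj10, Kcnj11, Kcnj12 and Kcnj16, with adjusted p from 0.0072 to 0.0446), and 1 of 9, Kcnj10, passed for ethanol against saline in KO, as did 2.68% of genes (0.57, adjusted p = 0.0336). Without only KO ethanol M1, 2 of 9 passed, Kcnj11 and Kcnj9 (adjusted p = 0.0474 for Kcnj9), against 7.78% of genes.

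Partner genes, from lists drawn up for this family with earlier results of these data known, stayed mostly below the threshold between groups. Over all genes tested, 7.53% passed for KO against WT vermis after ethanol and 4.91% after saline. The calls named below fell in these comparisons, and 1 call in a list says little beside such shares. Across the 13 comparisons other than tissue, none of the 4 tested Kir genes outside the group, the 2 sulfonylurea receptor genes or the genes for Kir2 scaffolds and PIP2 supply (18 of 19 tested within a tissue, 19 across the tissues) passed. Adora1, the adenosine A1 receptor that opens GIRK channels, was the 1 of 19 receptor genes to pass: it was lower in KO than in WT vermis after ethanol (220 against 276 CPM, log2 fold change -0.31 ± 0.07, adjusted p = 0.0127), but not without KO ethanol F1 and M3 (-0.21 ± 0.07, adjusted p = 0.137). Gng13, a G protein γ subunit that is also in the Purkinje marker list, was the 1 of 26 G protein and regulator genes, at 106 against 52.1 CPM in KO and WT vermis after saline (1.04 ± 0.27, adjusted p = 0.0408). Dag1, a dystroglycan of the complex that clusters Kir4.1 at astrocyte endfeet, was the 1 of 16 astrocyte clearance genes, also higher in KO vermis after saline (0.23 ± 0.05, adjusted p = 0.0201).

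Between the tissues, 13 of 19 receptor genes were lower in vermis and 2 were higher, with a list median log2 difference of -0.85 against -0.03 over all genes; of all genes tested 38.0% were lower and 34.6% higher, and the counts of the lists that follow are to be read against these shares. Sstr4, a somatostatin receptor, fell by 4.82 on the log2 scale and Grm2, a group II glutamate receptor, fell by 1.48, whereas Cnr1, the cannabinoid receptor, rose from 189 to 421 CPM (1.06 ± 0.08, adjusted p = 1.45e-08). Of the G protein and regulator genes 8 of 26 were higher and 13 lower; Rgs8, an RGS protein of Purkinje cells, rose by 3.10 ± 0.10. Both sulfonylurea receptor genes, the partners of Kcnj11, were higher in vermis (Abcc8 0.47 ± 0.05 and Abcc9 0.53 ± 0.05). Of the astrocyte clearance genes 10 of 16 were higher and 4 lower, among them Aqp4 (1.03 ± 0.04) and Slc1a3 (1.19 ± 0.07) higher and Slc1a2 (-1.58 ± 0.08) lower. Of the Kir2 scaffold and PIP2 genes 6 of 19 were higher and 8 lower, among them Lin7a (2.33 ± 0.07) and Dlg4 (-0.93 ± 0.04).

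Among the members themselves, the levels of some pairs went together from library to library; these correlations are descriptions over 16 libraries of a tissue that share depth and dissection. Kcnj9 and Kcnj12 had a Pearson r of 0.89 in hippocampus and 0.94 in vermis. In vermis Kcnj2 and Kcnj16 had r = 0.90, Kcnj10 and Kcnj16 r = 0.88, and Kcnj9 and Kcnj10 r = -0.90. There KO ethanol F1 and M3 lie far from the rest, and these 2 libraries may carry much of each r in vermis. Correlations without them are not given. In hippocampus the 16 libraries include the KO groups whose values chose Kcnj2, so its correlations there add no separate evidence. The genes most like Kcnj2 in hippocampus were P2ry13, a purinergic receptor of microglia (r = 0.85), Spry2 (0.81), Sox2 (0.81), mt-Nd2 (0.78) and Tlr3 (0.77), among 14073 genes. In vermis, with KO ethanol F1 and M3 included, they were Sntg1, Tmem200c, Myt1l, Zfhx4 and Ptpro (r from 0.97 to 0.98). For Kcnj10 the first gene was Chrna4 in hippocampus (0.90) and Rtn2 in vermis (0.97), and for Kcnj6 Cacna1e (0.95) and Pde4dip (0.85).

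The members lie on 6 chromosomes of GRCm39 in the deposited coordinates, and 2 pairs are neighbours. Kcnj2 (+ strand) has its first listed exon at chr11:110956990-110957160, and Kcnj16 (+ strand) its own at chr11:110858859-110858921; 98.1 kb separates these exons, with the long noncoding gene Gm57334 on the opposite strand listed between, at a mean of 0.042 CPM in hippocampus. The first listed exons of Kcnj9 and Kcnj10 lie 18.0 kb apart on chromosome 1, on opposite strands, with the annotated gene Gm57153 listed between. Kcnj9 and Kcnj10 themselves may be closer than these exons. Kcnj16 was higher and Kcnj2 lower in vermis than in hippocampus, while both were above the other vermis libraries in KO ethanol F1 and M3. Kcnj9 and Kcnj10 were both higher in vermis, while Kcnj9 was below and Kcnj10 above the other vermis libraries in KO ethanol F1 and M3. Kcnj2, Kcnj4 and Kcnj10 each have 1 transcript model, whose counts equal the gene's in every library. The other members have 3 to 7 models, in which a read may count for several; of the 7 Kcnj6 models the longest took 36.3 ± 1.03% in hippocampus and 34.4 ± 1.99% in vermis.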

How the data were processed

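Gene counts were made by the authors with bcl2fastq, cutadapt 5.0, STAR 2.7.10a, featureCounts 2.0.6 and GRCm39, per the submitters' processing notes. Whether counting used strand is not given in the sources used here. The deposited values are whole-number counts per gene and per transcript model. Even numbers made up 88.0 to 93.4% of counts from 2 to 20 in a library, which can arise where both mates of a pair are counted, so counts may overstate the number of fragments. Exon lengths, used for CPM per kb, are those in the deposited tables. No library pair within a group agreed within sampling noise (lowest chi-square per degree of freedom 8.41 over 48 pairs).

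CPM was computed from the total gene counts. Tests used edgeR 4.0.16 (quasi-likelihood, robust, filterByExpr, TMM; R 4.3.3) on all genes of a tissue, with group and sex terms, and, between tissues, on all 32 libraries with the mouse as a block, since each mouse gave both tissues. Benjamini-Hochberg adjustment ran over all genes tested, and a call is an adjusted p below 0.05. Fold changes are given with their SE and with 95% intervals. DESeq2 1.42.0, other scalings, filters and models, and each library left out were alternatives; leaving out the vermis libraries KO ethanol F1 and M3 together was added after seeing the data. The tests were tested on simulated data. The members and the gene and marker lists were chosen with earlier results of these data known. All 9 members were fitted in every comparison, and the text gives the values of some of them. List genes that passed between groups are all named. Between tissues, those named are examples picked from the 6 with the smallest p in a list, and genes with a smaller p may be left out. Genes like Kcnj2 are the 5 with the largest Pearson r in log2 CPM (prior count 2). They come from genes of at least 1 CPM that have a symbol other than a predicted name. For Kcnj10 and Kcnj6 only the first such gene is named. No p is given for the contrasts that chose Kcnj2. Coding sequences are from GENCODE vM21 (GRCm38) and their coordinates are not used; alignments used Biopython 1.88 and figures matplotlib 3.10.9. The sequence windows of 3 members are not reported here.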

Additional observations from a re-analysis of the deposited data

Results flagged for a closer look

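Of 72 member and group combinations, 8 had a library whose gap to its nearest neighbour exceeded Dixon's limit for 4 values; chance flags about 1 in 20. In KO saline hippocampus, mouse F1 was the highest in 3 genes: Kcnj9 at 151 CPM against 87.6 to 91.1 in the other 3, Kcnj10 at 281 against 158 to 174, and Kcnj12 at 12.9 against 5.10 to 5.90. In vermis, Kcnj2 was low in WT saline F1 at 2.36 CPM and high in KO saline M1 at 8.11, Kcnj6 was low in KO saline F1 at 21.04, and Kcnj16 was high in WT ethanol M3 at 39.4. Kcnj16 was low in WT ethanol hippocampus M1, at 12.4 CPM against 13.3 to 13.4. A gap test on 4 values cannot pick out 2 libraries that lie apart together, as KO ethanol F1 and M3 do in vermis.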

How the results depend on the processing

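Over 2754 refitted log2 fold changes of the 9 members, 16 lost a call and 15 gained one, of which 13 and 8 were in the hippocampal contrasts that chose the genes, and 0 called values changed sign. The count of members called moved in 7 of the 14 comparisons. In KO hippocampus, ethanol against saline gave 1 member, 2 without the low-count filter (Kcnj2 and Kcnj3), 0 with the groups compared fitted alone, and 0 to 1 with 1 library left out. KO against WT hippocampus went from 0 to 1 (Kcnj2) without the filter after saline, and from 0 to 1 (Kcnj2) without the filter and with DESeq2 after ethanol. The hippocampal interaction went from 0 to 2 without the filter (Kcnj2 and Kcnj6), to 1 with DESeq2 and to 1 with the replicate label as a block. These hippocampal comparisons used the KO libraries that chose Kcnj2, so nothing is read from its calls in them. In KO vermis, ethanol against saline gave 0 to 1 with 1 library left out. KO against WT vermis after ethanol gave 1 member, 2 with DESeq2 (Kcnj9 and Kcnj11), 0 with the groups compared fitted alone, 0 without KO ethanol F1 and M3, and 1 to 5 with 1 library left out. The cause was not tested. Between the tissues 8 of 9 passed without the KO ethanol mice F1 and M3, as did 68.2% of all genes. Over all genes, DESeq2 called 114 for ethanol in KO hippocampus against 12 with edgeR, 226 against 40 for KO against WT after ethanol, 262 against 41 for the interaction, and 2924 against 1690 for KO against WT vermis after ethanol; without KO ethanol F1 and M3 edgeR called 874 in the last.

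Residuals of mice with the same label in different groups had a median correlation of 0.05 in hippocampus (24 pairs, -0.27 to 0.41). In vermis it was 0.08 (24 pairs, -0.31 to 0.26). For mice with other labels the medians were -0.03 and -0.02. Weak correlations of this kind cannot decide whether the label F1 to M3 pairs mice across groups. With that label as a replicate block, Kcnj2 with ethanol in KO hippocampus was 0.86, its interaction, the 1 call that the block changed, was 0.97, and Kcnj11 in KO against WT vermis after ethanol was -0.29. Without the mouse block all 9 members still differed between the tissues. With TMM-scaled library sizes, 72 of 72 group means stayed within 1 SD of those given.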

Other observations

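Of 6 other Kir genes in the table, Kcnj5, Kcnj8, Kcnj13 and Kcnj14 passed the filter on low counts, and Kcnj1 and Kcnj15 did not, with at most 2 and 18 counts in a library. Kcnj13 encodes Kir7.1, a channel of the choroid plexus epithelium, and had 8.30 ± 7.68 CPM (SD, n = 16) in hippocampus, from 0.033 to 26.2, and 0.725 ± 0.519 CPM in vermis. The 10 choroid plexus markers summed to between 35.02 and 3230 CPM across the hippocampal libraries. Kcnj8, which encodes the Kir6.1 pore of vascular ATP-sensitive channels, was the 1 of the 4 that was higher in vermis, at 2.97 against 2.16 CPM (log2 difference 0.42 ± 0.08, adjusted p = 0.000106 in edgeR's quasi-likelihood test). Kcnj5, the GIRK4 gene, was at most 1.43 CPM in any hippocampal library.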
